A study of Bos taurus with 17 samples.

Results

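The genes described here are interferon-stimulated genes and the factors that switch them on, followed through 17 pools of bovine morulae, the stage at which the blastomeres of the early embryo compact. They were taken by symbol from a list of 9: the antiviral effectors MX1, MX2, ISG15, RSAD2 and IFI6, the transcription factors STAT2, IRF7 and IRF9, and the RNA sensor IFIH1. A row was found for 7 of the 9 among 17167 genes, and RSAD2 and IFI6 are not analysed here. All embryos were produced in vitro. In 8 pools recombinant WNT5A protein, a secreted signalling ligand, had been added, and 9 pools were controls; the labels give neither its dose nor the length of exposure, and no strain or parent animals. Each pool held 10 embryos, so a value is an average over them, and more embryos or cells with a transcript cannot be told apart from more transcript in each. Values are RPKM as the authors computed them (reads scaled to exon length and to a size set for each library). This allows levels to be set side by side between genes of different length.

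In mammals, type I interferons bind a paired receptor on the cell surface, and the kinases JAK1 and TYK2 then activate proteins of the STAT family. STAT2 joins IRF9 in a complex known as ISGF3, which binds the promoters of interferon-stimulated genes and turns on antiviral proteins such as MX1 and ISG15. In cattle the trophectoderm of the later conceptus secretes interferon tau, the signal by which the mother recognises pregnancy, and a rise of MX1 and ISG15 in the uterus and in blood cells is a known sign of it. The comparison of WNT5A with control pools asks whether WNT5A changes transcript levels in the morula, and here it is read for this pathway.

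Transcripts of the factors were read in most pools, whereas those of the effectors and of IFIH1 were absent or close to the detection limit in most pools. IRF7 averaged 33.0 ± 16.9 RPKM in WNT5A pools (SD, n = 8) and 32.9 ± 20.5 RPKM in control pools (SD, n = 9). Reads of MX1, ISG15 and IFIH1 were each found in 4 of the 8 WNT5A pools, against 1 of the 9 controls, and none exceeded 1.01 RPKM. In a limma test across genes, no gene of the list passed an adjusted p of 0.05 (Benjamini-Hochberg) between WNT5A and control pools. Of 12415 genes above a minimum level, 1 passed in that comparison (0.00805%), so a miss is what nearly every gene showed.

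The libraries were not alike. WNT5A pools held 119 ± 65.8 M (mega) reads (SD, n = 8), against 145 ± 13.4 M in control pools (SD, n = 9). WNT5A pools 4, 12 and 14 were shallow, with 34 to 52.4 M reads, against 140 to 200 M in the other 5. Control pools 2, 3 and 6 were as deep as the other controls but had reads on only 10055 to 11268 genes, against 13587 to 15430. Results that change in direction or by much in size without these 6 libraries are also given without them. All 9 morula markers examined, POU5F1, NANOG, CDX2 and KRT8 among them, passed the minimum level; their summed level was 3286 to 6564 RPKM (median 3888) in WNT5A pools and 3171 to 4622 RPKM (median 4070) in control pools.

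IRF7 drives production of type I interferons and is itself induced by them, and it was the most abundant gene of the list in all 17 pools. In WNT5A pools 1, 2, 4, 7, 10, 11, 12 and 14 it stood at 28.4, 44.4, 13.2, 59.6, 30.2, 50.9, 18.1 and 18.8 RPKM. In control pools 1, 2, 3, 4, 5, 6, 9, 10 and 13 it stood at 32.9, 21.9, 1.94, 32.3, 66.3, 15.0, 51.5, 22.1 and 52.5 RPKM. The groups overlapped over nearly their whole range, and the 3 shallow WNT5A pools were the lowest of theirs. The difference in mean log2(RPKM + 1), WNT5A minus control, was 0.22 ± 0.47 (SE; 95% interval −0.75 to 1.19; limma adjusted p = 0.905). Without control pools 2, 3 and 6 it was −0.45, and without all 6 libraries 0.03, so the data give IRF7 no settled direction.

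STAT2, the subunit that carries the activation domain of ISGF3, came next in level. It stood at 10.9, 4.02, 5.01, 7.29, 3.93, 11.8, 7.76 and 4.75 RPKM in WNT5A pools 1, 2, 4, 7, 10, 11, 12 and 14. Control pools 1, 2, 3, 4, 5, 6, 9, 10 and 13 had 8.33, 10.4, 0, 8.39, 4.80, 2.45, 17.03, 2.08 and 4.36 RPKM. The highest and the lowest pools were both controls, with no read in control 3 at a floor of 3 reads that corresponds to 0.00615 RPKM. The log2 difference was 0.40 ± 0.45 (SE; 95% interval −0.53 to 1.33; limma adjusted p = 0.810), and it was 0.12 without the 6 libraries.

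IRF9, the DNA-binding partner in ISGF3, ranged from 0.850 to 7.65 RPKM in WNT5A pools (median 4.32) and from 0 to 9.11 RPKM in control pools (median 4.46). Its lowest WNT5A values were 1.19 and 0.850 RPKM in pools 4 and 14, and its lowest control values were 0, 0.635 and 0.0587 RPKM in pools 2, 3 and 6. The log2 difference was 0.35 ± 0.49 (SE; 95% interval −0.67 to 1.37; limma adjusted p = 0.852), −0.41 without control pools 2, 3 and 6, and 0.10 without all 6 libraries. IRF7 exceeded STAT2 in 17 of 17 pools. STAT2 exceeded IRF9 in 12 of 17, and IRF9 was higher in the other 5, so these neighbours in the order were not separated beyond their spread.

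**Figure D1:**
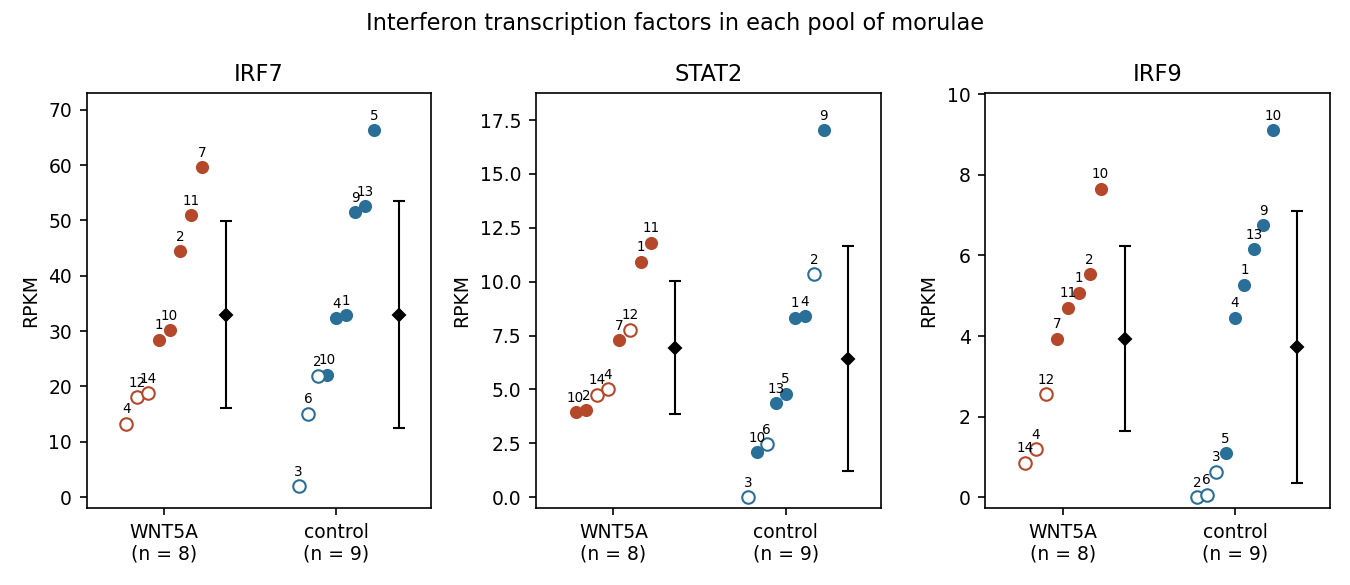
RPKM of IRF7, STAT2 and IRF9 in each pool, with WNT5A pools on the left and control pools on the right of each panel; numbers are pool numbers, open circles mark WNT5A pools 4, 12 and 14 and control pools 2, 3 and 6, and diamonds with bars are the mean ± SD. The groups overlap for each gene, and open circles hold the 3 lowest IRF7 values of WNT5A pools and the 3 lowest IRF9 values of control pools.

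Within the groups, IRF7 and IRF9 were lower in the WNT5A libraries that stood apart. IRF9 was also lower in the control libraries that did, but that call held in only 5 of 14 alternative settings. IRF7 was at 13.2 to 18.8 RPKM in WNT5A pools 4, 12 and 14, against 28.4 to 59.6 RPKM in the other 5, with no overlap. It was lower by a log2 difference of −1.26 ± 0.25 (SE; limma adjusted p = 0.00597). IRF9 averaged 1.53 ± 0.905 RPKM in those 3 pools and 5.38 ± 1.40 RPKM in the other 5 (SD), a log2 difference of −1.36 ± 0.31 (SE; limma adjusted p = 0.00982). STAT2 did not pass, with a log2 difference of −0.24 (limma adjusted p = 0.682). In that comparison 11.6% of the genes tested were lower past the threshold, so IRF7 and IRF9 were among 1434 such genes. Another 985 genes were higher past it. The part of read depth in these differences was not tested.

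Among controls, IRF9 averaged 0.231 ± 0.351 RPKM in pools 2, 3 and 6, against 5.47 ± 2.67 RPKM in the other 6 (SD). The log2 difference was −2.28 ± 0.53 (SE, limma adjusted p = 0.0370). In that comparison 420 of the tested genes (3.38%) were lower past the threshold and 14 were higher. The call was lost when the libraries were quantile normalized (log2 difference −1.35, adjusted p = 0.228), with no minimum level (adjusted p = 0.0529), and when control 1, 2, 4, 6, 9, 10 or 13 was left out (adjusted p 0.0587 to 0.0829). IRF7 averaged 12.96 ± 10.13 RPKM against 42.9 ± 16.5 RPKM (SD) and did not pass (log2 difference −2.01 ± 0.57, SE; limma adjusted p = 0.0759), though it did without control 2 (adjusted p = 0.0328). STAT2 averaged 4.27 ± 5.41 RPKM against 7.497 ± 5.269 RPKM (SD) and did not pass either (log2 difference −1.10; limma adjusted p = 0.398). These pools were set apart by how many genes had reads, a count to which every gene contributes, so lower levels in them are not independent of that choice.

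MX1, a dynamin-like GTPase that blocks replication of several RNA viruses, was the 1 gene of the list under an FDR of 0.05 in the authors' deposited table. WNT5A pools 4, 14, 7 and 11 had 0.943, 0.506, 0.365 and 0.19 RPKM, from 97, 76, 170 and 79 reads. WNT5A pools 1, 2, 10 and 12 had none. Among the 9 control pools only pool 5 had any, at 0.0239 RPKM from 9 reads. All 4 positive WNT5A pools thus lay above every control, and the other 4 were level with the 8 controls at 0. The deposited exons of MX1 (ENSBTAG00000030913, 2883 bases in 16 exon entries on the plus strand) run from 141677687 to 141706496 on ARS-UCD1.2, and its relative MX2 (141621165 to 141658223) is its neighbour in the RefSeq gene order. At 0, the floor of 3 reads was 0.00536 to 0.0235 RPKM in WNT5A pools and 0.00636 to 0.00821 RPKM in control pools, all under the 4 positive values.

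MX1 averaged 0.251 ± 0.341 RPKM in WNT5A pools (SD, n = 8) and 0.00266 ± 0.00798 RPKM in control pools (SD, n = 9). The log2 difference was 0.28 ± 0.12 (SE; 95% interval 0.03 to 0.52), on a log2(RPKM + 1) scale that understates changes at such low levels. It did not pass in a limma fit on all 17167 genes (adjusted p = 0.690), where 0 genes did (0%) and 1220 had an unadjusted p under 0.05. A two-sided exact permutation test of MX1, over 24310 assignments of libraries to the groups, gave an unadjusted p of 0.0294. In the authors' deposited table MX1 had a log2 fold change of 9.09 and an FDR of 0.0341. The deposited table had 173 genes under an FDR of 0.05, all higher with WNT5A (1.01% of the table), and MX1 ranked 139 among them. The control pools together held 9 reads of MX1, against 422 in WNT5A pools.

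The highest MX1 values came from the shallow libraries: pools 4 and 14 belong to the 3 with few reads. MX1 had reads in 2 of those 3 pools and in 2 of the other 5, whose mean was 0.111 ± 0.164 RPKM (SD). Without WNT5A pools 4, 12 and 14 the log2 difference was 0.14 (limma adjusted p = 0.982), and without all 6 libraries 0.13. After quantile normalization it was 0.15. With the shallow pools left out, no value of MX1 exceeded 0.365 RPKM.

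MX2, the neighbouring relative of MX1 with a nuclear pore-associated antiviral form in humans, was lower still. Reads appeared in WNT5A pools 7 and 11, at 0.174 and 0.0264 RPKM, and in control pools 5 and 1, at 0.0687 and 0.0136 RPKM. Means were 0.0250 ± 0.0608 RPKM in WNT5A pools and 0.00915 ± 0.0228 RPKM in control pools (SD, n = 8 and 9), a log2 difference of 0.02 ± 0.05 (SE; limma adjusted p = 0.926). WNT5A 7 and 11 and control 5 had reads of both MX genes, but WNT5A pools 4 and 14, the highest for MX1, had none of MX2.

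ISG15, a ubiquitin-like protein that is attached to other proteins in cells that have met interferon, shared only some of its positive pools with MX1. It stood at 1.01, 0.75, 0.43 and 0.547 RPKM in WNT5A pools 1, 2, 7 and 11, from 42 to 86 reads, and at 0.5001 RPKM in control pool 1, from 47 reads. The other 4 WNT5A pools and 8 control pools had none. For this short transcript of 602 bases the floor at 0 reached 0.140 RPKM in WNT5A pools and 0.0393 RPKM in control pools. Means were 0.342 ± 0.402 RPKM in WNT5A pools and 0.0556 ± 0.167 RPKM in control pools (SD, n = 8 and 9). The log2 difference of 0.31 ± 0.15 (SE, 95% interval −0.01 to 0.62) did not pass in limma (adjusted p = 0.706). The two-sided exact permutation p was 0.0701, unadjusted. The authors' deposited table gave an FDR of 0.251.

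IFIH1 encodes MDA5, a cytoplasmic sensor of long double-stranded RNA that is itself induced by interferon. WNT5A pools 1, 2, 10 and 11 had 0.759, 0.33, 0.16 and 0.215 RPKM, from 98 to 344 reads, and control pool 4 had 0.153 RPKM from 80 reads. No other pool had any. The log2 difference was 0.19 ± 0.10 (SE, 95% interval −0.02 to 0.41, limma adjusted p = 0.718). The unadjusted two-sided exact permutation p was 0.0498, and the authors' deposited table gave an FDR of 0.124. Pools 1, 2 and 11 of the WNT5A group had both ISG15 and IFIH1, while the shallow pools 4, 12 and 14 had neither.

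Counting these 4 low genes by pool, WNT5A 11 had reads of all 4, WNT5A 7 of 3, WNT5A 1 and 2 of 2 each, WNT5A 4, 10 and 14 of 1 each, and WNT5A 12 of 0. Among controls, pools 1 and 5 had reads of 2, pool 4 of 1, and pools 2, 3, 6, 9, 10 and 13 of 0. WNT5A 11 was also the pool with the most genes detected, 16589, and WNT5A 7 followed with 16026. In controls likewise the 3 pools with reads of any of the 4 were those with the most genes detected, 14184 to 15430. How far the number of detected genes accounts for these patterns was not tested.

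The contrast of reads in at least 4 WNT5A pools with reads in at most 1 control was shared by 3 of the 7 genes, MX1, ISG15 and IFIH1. Over all 17167 genes, 408 had it (2.38%), and 7 had the reverse, reads in at least 4 controls and at most 1 WNT5A pool (0.0408%). This pattern was picked after the values were seen and was not tested. None of the 7 members had the reverse pattern. Without WNT5A pools 4, 12 and 14, in which neither gene had a read, the log2 differences were 0.53 for ISG15 and 0.32 for IFIH1 (limma adjusted p = 0.551 and 0.709). After quantile normalization of all pools they were 0.19 for ISG15 and 0.07 for IFIH1.

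**Figure D2:**
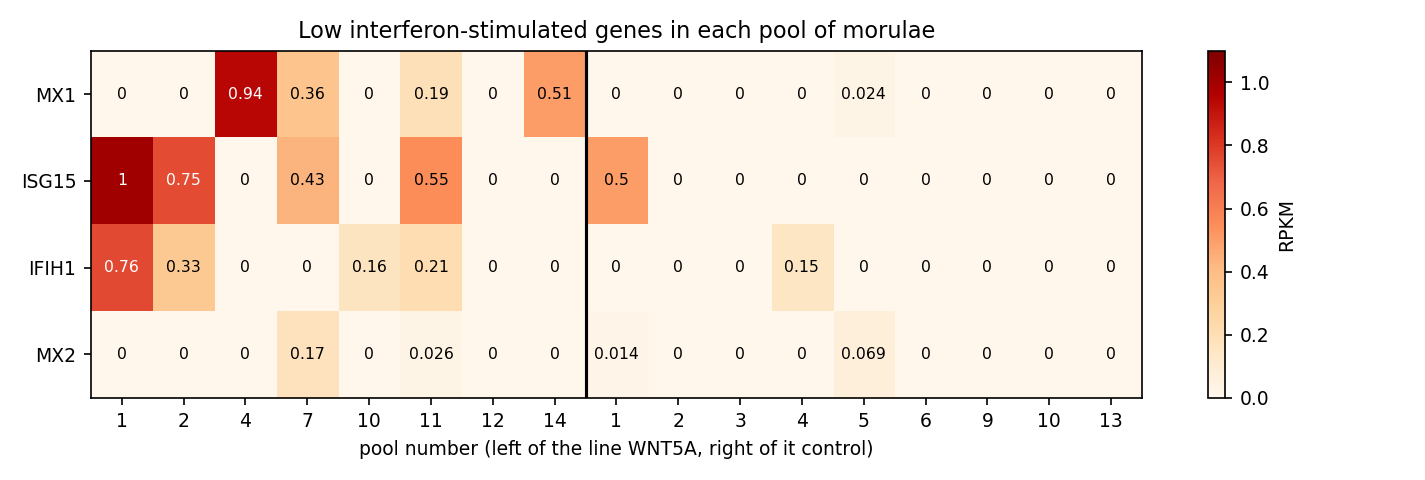
RPKM of MX1, ISG15, IFIH1 and MX2 (rows) in each pool (columns), with WNT5A pools left of the line and control pools right of it; each cell prints its value. MX1, ISG15 and IFIH1 have reads in 4 WNT5A pools each, in sets that only partly overlap, and in 1 control pool each.

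**Figure D3:**
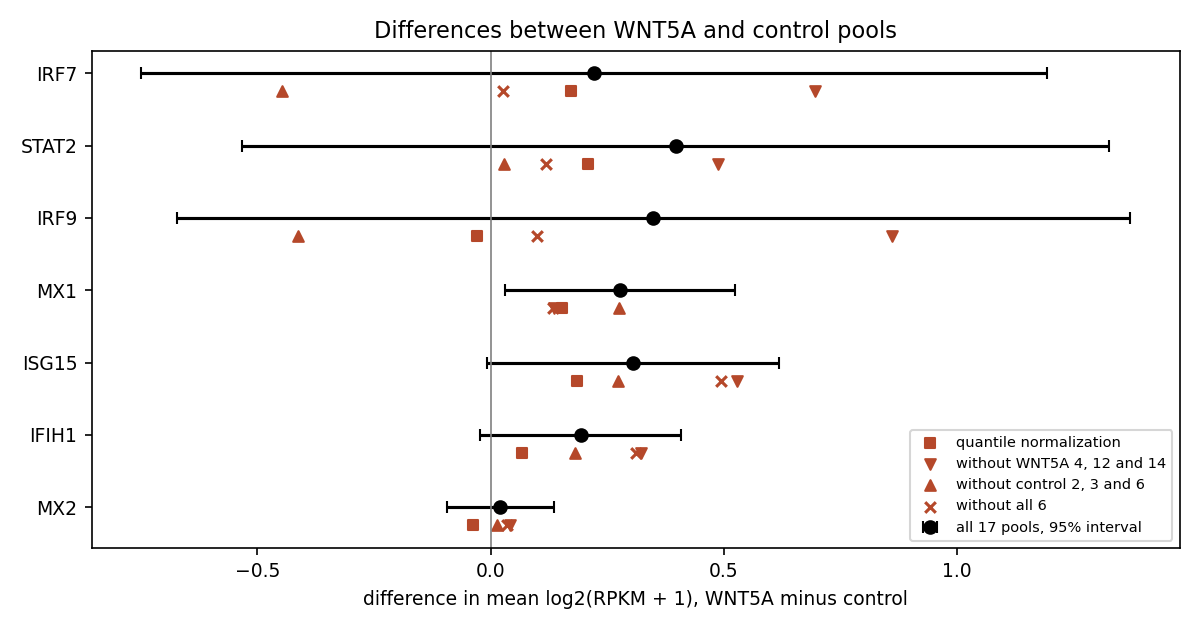
Difference in mean log2(RPKM + 1), WNT5A minus control, of each gene. Black points and bars are all 17 pools with the 95% interval, and red marks repeat the estimate after quantile normalization or without the libraries named. IRF7 and IRF9 lie on either side of 0 depending on the libraries left in. Estimates of MX1, ISG15 and IFIH1 lie above 0 in each setting drawn, but the intervals of ISG15 and IFIH1 reach below 0.

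The ligands of the pathway were read as interferon tau genes, whose near-identical copies the counting could split, so the value of a single copy is uncertain. Of 23 interferon genes looked for, 4 had a row, all of them interferon tau. IFNT3 averaged 3.28 ± 1.56 RPKM in WNT5A pools and 1.95 ± 1.74 RPKM in control pools (SD, n = 8 and 9), a log2 difference of 0.69 ± 0.37 (SE; limma adjusted p = 0.690), and 0.24 without the 6 libraries and 0.35 after quantile normalization. IFNT averaged 1.83 ± 0.610 RPKM in WNT5A pools and 3.50 ± 7.14 RPKM in control pools (log2 difference 0.11, but −0.20 after quantile normalization; limma adjusted p = 0.955). The wide control spread came from pool 6, at 22.4 RPKM against at most 2.16 RPKM in the other controls. In that pool MX1, MX2, ISG15 and IFIH1 were all at 0.

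A further copy, IFN-tau-c1, lay outside the list and was added after its values were seen. It had 1.53, 0.862, 0, 0.232, 0.78, 0.381, 4.38 and 2.45 RPKM in WNT5A pools 1, 2, 4, 7, 10, 11, 12 and 14. Among control pools, pool 1 had 0.969 RPKM and pools 2, 5 and 6 had 1 or 2 reads each, under the floor of 3 reads. Means were 1.33 ± 1.46 RPKM in WNT5A pools and 0.115 ± 0.321 RPKM in control pools (SD, n = 8 and 9). The log2 difference was 0.89 ± 0.28 (SE), 0.65 without WNT5A pools 4, 12 and 14, and 0.45 after quantile normalization, and did not pass in limma (adjusted p = 0.650). The authors' deposited table gave it an FDR of 0.0136. WNT5A pool 4, the highest for MX1, was the only WNT5A pool with no IFN-tau-c1 read. Of the remaining copies, IFNT2 reached 0.762 RPKM in WNT5A pools and 1.01 RPKM in control pools, and IFN-TAU reached 0.603 RPKM in WNT5A pools and 1.87 RPKM in control pools.

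IFNAR1, a chain of the type I interferon receptor, averaged 1.05 ± 0.664 RPKM in WNT5A pools and 2.07 ± 1.90 RPKM in control pools (SD, n = 8 and 9). It had no read in control pools 2, 3 and 6 and averaged 3.10 RPKM in the other 6 controls. Its log2 difference was −0.35 ± 0.38 (SE, limma adjusted p = 0.805), −0.60 after quantile normalization and −0.71 without the 6 libraries. IFNAR2 is not analysed here. Of the receptor and kinase genes, 7 were tested, of which 5 had a positive and 2 a negative log2 difference (median 0.46); 4 were positive both after quantile normalization (median 0.00) and without the 6 libraries (median 0.21). The median over all 12415 tested genes was 0.11, with 7735 positive. It was −0.01 after quantile normalization, with 6012 positive, and 0.03 without the 6 libraries, with 6914 positive. The kinase JAK1 averaged 7.01 ± 1.94 RPKM in WNT5A pools and 4.18 ± 2.80 RPKM in control pools (log2 difference 0.84 ± 0.38, SE; limma adjusted p = 0.676), with a log2 difference of 0.41 without the 6 libraries. IFNGR1, a chain of the interferon gamma receptor, had a log2 difference of 0.62 (limma adjusted p = 0.717), 0.15 without control pools 2, 3 and 6, 0.40 without all 6 and 0.32 after quantile normalization.

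None of the genes tested in the pathway lists passed the threshold in limma, and JAK1, SOCS3 and B2M had an unadjusted p under 0.05 (0.0357, 0.0208 and 0.0390), as had 913 of all 12415 genes tested. Of 10 STAT and IRF factors tested, STAT2, IRF7 and IRF9 included, 7 had a positive and 3 a negative difference (median 0.31). The positive ones were 6 after quantile normalization (median 0.18) and 5 without the 6 libraries (median 0.0035). IRF5 had a log2 difference of 0.95, but −0.19 without control pools 2, 3 and 6. IRF3, which acts with IRF7 on interferon promoters, averaged 72.3 ± 16.1 RPKM in WNT5A pools and 87.3 ± 18.4 RPKM in control pools (log2 difference −0.27; limma adjusted p = 0.717), with −0.11 without the 6 libraries. Among sensors and adaptors 4 of 6 were positive (median 0.17), but 1 of 6 after quantile normalization (median −0.13) and 3 of 6 without the 6 libraries (median 0.0034). MAVS, the mitochondrial adaptor through which MDA5 signals, had a log2 difference of 0.68, but −0.31 without control pools 2, 3 and 6. MYD88, the adaptor of most Toll-like receptors, had −0.46, but 0.04 without WNT5A pools 4, 12 and 14.

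Of 12 negative regulators, 7 were positive and 5 negative (median 0.00), with 6 positive after quantile normalization (median −0.0083) and 4 without the 6 libraries (median −0.08). SOCS3, an inhibitor of JAK kinases, averaged 12.1 ± 8.42 RPKM in WNT5A pools and 5.16 ± 3.52 RPKM in control pools (SD, n = 8 and 9). Its log2 difference was 0.97 ± 0.39 (SE; limma adjusted p = 0.673), and 0.10 without the 6 libraries. IRF2BP2, a corepressor that binds IRF2, had a log2 difference of 0.97, and 0.16 without the 6 libraries. In the list of ISG15 conjugation, 3 of 8 genes were abundant enough to be tested, and all 3 were positive (median 0.25), but 1 was after quantile normalization (median −0.01) and 0 were without the 6 libraries (median −0.07). They include HERC5, a ligase for ISG15, at 3.35 ± 1.49 RPKM in WNT5A pools and 2.78 ± 1.45 RPKM in control pools, and USP18, which removes ISG15, at 0.765 ± 0.759 RPKM in WNT5A pools and 0.528 ± 0.828 RPKM in control pools. Their log2 differences were 0.27 and 0.25, and −0.25 and −0.01 without the 6 libraries.

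Of 35 further interferon-stimulated effectors with a row, 22 were tested, with 12 positive and 10 negative differences (median 0.05), with 7 positive after quantile normalization (median −0.13) and 11 without the 6 libraries (median 0.03). ZC3HAV1, which binds CpG-rich viral RNA, averaged 0.900 ± 0.488 RPKM in WNT5A pools and 0.394 ± 0.557 RPKM in control pools (log2 difference 0.49; limma adjusted p = 0.676), but −0.03 after quantile normalization and 0.14 without the 6 libraries. PARP14, an ADP-ribosyltransferase, had a log2 difference of 0.54 (limma adjusted p = 0.690), with 0.04 after quantile normalization and 0.34 without the 6 libraries. IFIT5, an RNA-binding protein, had reads in 4 WNT5A pools, up to 0.900 RPKM, and in 0 of 9 controls, with an FDR of 0.0635 in the authors' deposited table. In antigen presentation 6 genes of 12 were positive and 6 negative (median −0.08), with 2 positive after quantile normalization (median −0.30) and 7 without the 6 libraries (median 0.04). B2M, the light chain of MHC class I, averaged 43.0 ± 12.7 RPKM in WNT5A pools and 30.4 ± 14.7 RPKM in control pools (log2 difference 0.55 ± 0.25, SE; limma adjusted p = 0.676), while the immunoproteasome subunit PSMB9 had −0.40, but 0.03 without the 6 libraries. For B2M it was 0.31 without WNT5A pools 4, 12 and 14, and 0.79 without control pools 2, 3 and 6. Without all 6 libraries the difference of B2M was 0.55, and after quantile normalization 0.61.

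**Figure D4:**
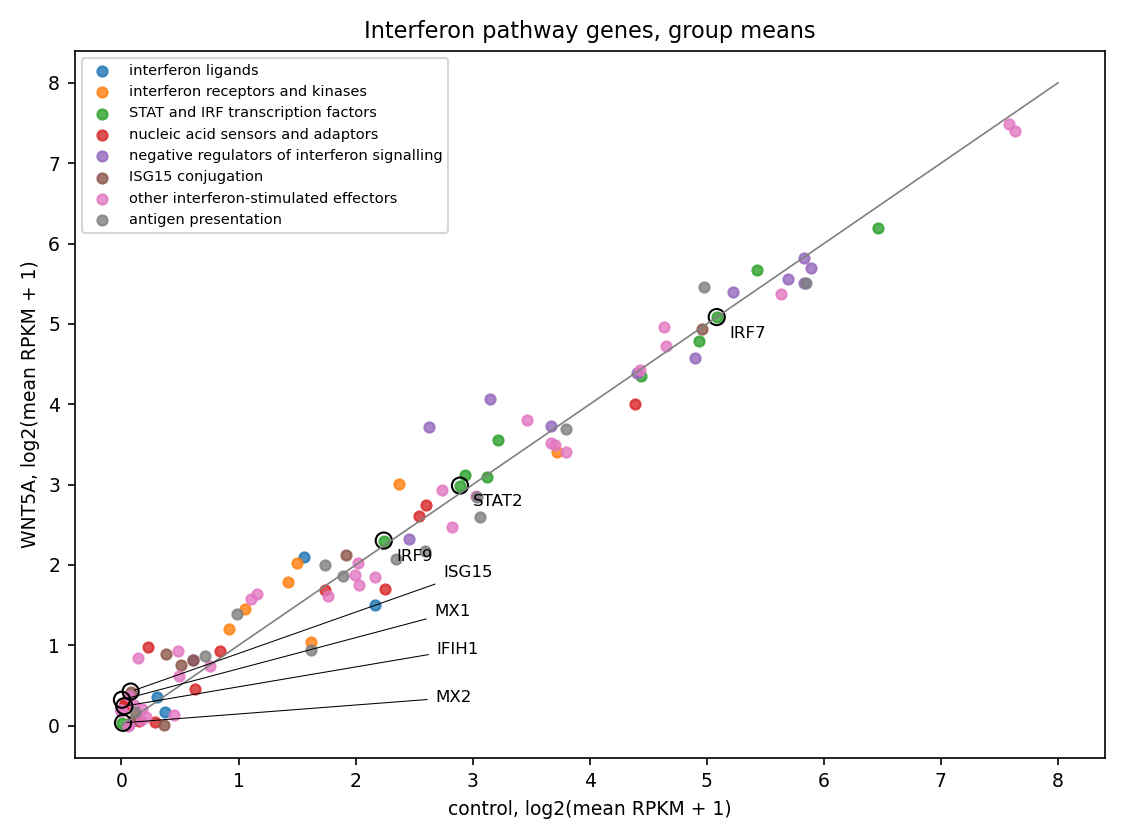
Mean level of each interferon pathway gene, as log2(mean RPKM + 1), in WNT5A pools (vertical axis) against control pools (horizontal axis), coloured by list, with the line of equal levels. The named genes are ringed; IRF7, STAT2 and IRF9 lie on the line, and MX1, ISG15, IFIH1 and MX2 lie close to the origin.

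Markers of other cells were low. The 6 immune cell markers with a row summed to 13.9 to 28.7 RPKM in WNT5A pools (median 19.9) and 17.9 to 85.6 RPKM in control pools (median 23.6). PTPRC, the pan-leukocyte marker, is not analysed here, and the T cell gene CD3E had reads in 2 of 8 WNT5A and 1 of 9 control pools. The 9 cumulus and granulosa markers with a row summed to 1.26 to 6.73 RPKM in WNT5A pools (median 5.39) and 2.16 to 18.1 RPKM in control pools (median 7.42). Both sums had lower medians in WNT5A pools, and their part in the levels of the low genes was not tested.

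Across the 17 pools, the genes whose levels followed the 3 factors most closely by Spearman rank were different for each. Among them were TMEM259 (rho 0.963) and SEC23IP (0.926) for STAT2, UCHL1 (0.954), SPNS1 (0.919) and FBP1 (0.884) for IRF7, and CEP112 (0.936), NICN1 (0.843) and TMEM254 (0.843) for IRF9. Without the 6 libraries, rho over 11 pools was 0.945 for STAT2 with TMEM259 and 0.90 with SEC23IP. It was 0.927, 0.782 and 0.827 for IRF7 with UCHL1, SPNS1 and FBP1. For IRF9 it was 0.827 with CEP112, but 0.545 with NICN1 and 0.618 with TMEM254. The factors themselves followed each other less closely. Over 17 and 11 pools, rho was 0.34 and 0.21 for STAT2 with IRF7, 0.03 and −0.41 for STAT2 with IRF9, and 0.47 and −0.53 for IRF7 with IRF9. These are descriptions of points that share library depth and the number of detected genes.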

How the data were processed

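Per the labels' protocols, RNA came from an RNeasy micro kit and libraries from the TruSeq stranded mRNA kit. FastQC, HISAT2, featureCounts, edgeR and the assembly ARS-UCD1.2 are named in the submitters' processing notes; whether strand was used in counting is not stated there, so reads of overlapping antisense genes cannot be told apart. The authors deposited RPKM values for 17167 genes. Their table also holds a p-value with its FDR, a likelihood ratio (here called a score), and log2 values of fold change and of CPM, per the file headers. Groups and pool numbers came from the labels, and nothing in them ties pools to separate fertilisation rounds. The p-values therefore measure the spread between these pools, which may be technical.

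RPKM times exon length fell on whole multiples of 1 step per library for 100% of values (tolerance 0.001), and these multiples are called reads. A floor of 3 reads on 1 kilobase was 0.0155 to 0.0841 RPKM and covers counting error only, since reads are not independent molecules. It was 0.0229 RPKM in control 6, with 150 M reads, and 0.0230 RPKM in control 5, with 138 M reads. The authors' scaling thus did not follow these read totals alone. RPKM are not counts, so log2(RPKM + 1) values, with a pseudocount of 1, were tested with limma 3.58.1 under R 4.3.3. Moderated variances used the trend and robust settings of eBayes, tests were two-sided, with Benjamini-Hochberg adjustment over all genes tested and a threshold of 0.05. Genes needed 0.5 RPKM in 8 of 17 libraries, which left 12415. STAT2, IRF7 and IRF9 passed; MX1, MX2, ISG15 and IFIH1 did not and were fitted with no minimum, on 17167 genes. The fit was tested on simulated data. Positions are as deposited, and neighbouring genes came from RefSeq.

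The genes and lists were chosen with earlier results of these data known. Named besides the 9 members were, per pathway list, its calls or, with no call, the 2 genes of lowest unadjusted p, the ligands with reads, and for each tested member the 3 genes of highest Spearman rho. Values of some genes that met these rules are not reported here. IFN-tau-c1, IFIT5 and IFNAR1 were named after their values were seen. Alternatives were a pseudocount of 0.1, a minimum of 1 RPKM, no minimum, quantile normalization, no trend or robust options, a replicate block, and leaving out libraries. Exact permutation tests, the comparisons within a group and the settings for genes outside the member list were added after the data were seen. Plots were drawn with matplotlib 3.10.9.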

Additional observations from a re-analysis of the deposited data

Results flagged for a closer look

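A single pool stood far from the rest of its group for 6 of the 14 pairs of gene and group examined. The measure was the gap of the highest or lowest pool to its neighbour over the range of the group. The rate of about 1 in 20 expected by chance does not hold where most pools are at 0. A lone pool with reads is then always flagged, so the 6 are not read as an excess. All 6 are the highest pools of their group; in 5 of these the gene was at 0 in most pools of the group, and IFIH1 in WNT5A pools was at 0 in 4 of 8. MX2 was at 0.174 RPKM in WNT5A pool 7, and IFIH1 was at 0.759 RPKM in WNT5A pool 1, against 0.33 RPKM in the next WNT5A pool. Among control pools, MX1 was at 0.0239 RPKM in pool 5, MX2 at 0.0687 RPKM in pool 5, ISG15 at 0.5001 RPKM in pool 1 and IFIH1 at 0.153 RPKM in pool 4.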

How the results depend on the processing

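Differences between WNT5A and control pools stayed short of the threshold for all 7 genes under every limma setting run. The number of genes past the threshold was 1, and 0 with no minimum level, after quantile normalization, with a replicate block, and without WNT5A pools 4, 12 and 14, control pools 2, 3 and 6 or all 6; leaving out 1 pool at a time gave 0 to 2, with 2 without control 5. By the unadjusted exact permutation test MX1 (log2 difference 0.28, p = 0.0294) and IFIH1 (0.19, p = 0.0498) were under 0.05. The exact permutation p was 0.0701 for ISG15, 0.594 for MX2, 0.442 for STAT2, 0.518 for IRF9 and 0.732 for IRF7. That test was run for these 7 genes only, so the share of all genes under 0.05 by it is not known. In limma the adjusted p was at least 0.533 for MX1 and 0.585 for IFIH1.

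Several log2 differences turned sign; the cause was not tested. With a replicate block, STAT2 was −0.20, IRF7 −0.0020 and MX2 −0.0049. Pool numbers 1, 2, 4 and 10 occur in both groups, with correlations of deviations of 0.22, 0.06, 0.02 and 0.11, and only number 1 correlated best with its own number, so the numbers were not taken as pairs. Quantile normalization gave −0.0293 for IRF9, −0.0381 for MX2, −0.199 for IFNT, −0.0619 for USP18, −0.0120 for HERC5 and −0.0292 for ZC3HAV1. Without control pools 2, 3 and 6 IRF7 was −0.45, IRF9 −0.41, IRF5 −0.19, MAVS −0.31 and HERC5 −0.0320. Without WNT5A pools 4, 12 and 14 MYD88 was 0.0425. Without all 6 IRF5 was −0.0651, MYD88 0.0723, MAVS −0.15, USP18 −0.0091, HERC5 −0.25 and PSMB9 0.0332. Leaving out 1 pool at a time gave −0.17 to 0.39 for IRF7 (negative without control 3), −0.0074 to 0.0312 for MX2 (negative without WNT5A 7) and −0.0614 to 0.507 for IFNT (negative without control 2 or 3).

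A pseudocount of 0.1 RPKM raised the difference of MX1 to 1.18 and of ISG15 to 1.17, with adjusted p of 0.589 and 0.622. The differences of IRF7 and IRF9 between WNT5A pools 4, 12 and 14 and the other WNT5A pools passed under each of the 13 alternatives run. The low genes rest on 9 to 344 reads in the pools that have any, and a 0 at this depth does not show absence.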
